A study of Mus musculus with 46 samples.

Results

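Livers of whole-body Cav1 knockout mice were compared with livers of C57BL/6N wild-type mice. The comparison holds 8 of the 46 livers of the series, chosen by their labels: 4 from the stock STOCK Cav1tm1Mls/J with the genotype Cav1 knockout, and 4 from C57BL/6N with the genotype WT. All 8 were snap-frozen livers of male mice on chow after a 6 h fast, and the labels used here give no age. The knockout is carried by every cell of the body, and the wild types are labelled as another strain, not as littermates, so genotype and stock differ together in every value and cannot be told apart. The other 38 livers come from a Plvap line on C57BL/6JBomTac, in which Lrat-Cre, active in hepatic stellate cells, deletes Plvap, and from its littermate controls. They were taken on chow after a 12 h fast (5 knockout and 6 control livers), refed for 2 h following a fast of 10 h, or after 6 weeks of western diet with fructose water or of high-fat diet and a 12 h fast. The characteristics give 6 h for the 8 livers, while a protocol text on chow-fed mice gives 12 h; the characteristics are used here.

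Caveolin-1, the product of Cav1, is the main coat protein of caveolae, flask-shaped pits of the plasma membrane that are abundant in endothelial cells and adipocytes. It works with caveolin-2, with the cavin coat proteins, and with EHD and PACSIN proteins that shape the neck of the pit. In the liver it is found in sinusoidal endothelium, in stellate cells and at lower levels in hepatocytes, and it has been linked to cholesterol transport, lipid storage and the control of nitric oxide synthase.

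Library totals ranged from 10902551 to 16175610 counts, and no pair among the 28 pairs of libraries was identical. The first principal component of the most variable genes held 58.6% of their variance and separated the knockout from the wild-type libraries. Knockout liver B stood apart. Its Spearman correlation across genes was 0.961 to 0.976 with the other knockouts, which had 0.981 to 0.987 among themselves, and wild types had 0.987 to 0.992. The 84 listed ribosomal protein genes summed to 25768 CPM (counts-per-million units) in knockout B, against 9094 to 10638 CPM in knockouts A, C and D and 8832 to 9640 CPM in the wild types. Its summed hemoglobin and red cell genes reached 527 CPM, against 221 to 259 CPM in the other knockouts and 216 to 301 CPM in the wild types. Log2 fold changes also followed gene length (Spearman rho -0.29 across 12978 genes). The part of either in the results was not tested, and list counts that moved by more than 1.5 times with the length trend removed or without knockout B are given with the lists.

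Cav1 was low in every knockout liver. Cav1 (ENSMUSG00000007655, GRCm39 chromosome 6, 17306334 to 17341451) had 0.457, 0.737, 1.66 and 0.565 CPM in knockout livers A to D, against 5.13, 3.93, 4.98 and 6.44 CPM in wild-type livers A to D. The values rest on 7, 10, 19 and 8 reads in the knockouts and on 73, 63, 79 and 105 reads in the wild types. All 4 knockouts lay below all wild types, and the mean of the knockouts was 16.7% of the wild-type mean (0.855 ± 0.55 against 5.12 ± 1.03 CPM, SD, n = 4 each). The log2 fold change was -2.62 ± 0.35 (SE), with an adjusted p of 0.0015 by the quasi-likelihood test of edgeR, which is the test behind each adjusted p that follows. Permuting the livers, two-sided and exact, on the scale of log2(CPM + 0.5) gave p = 0.0286, the smallest that 4 against 4 allows. Counts per gene do not show in which exons the remaining reads lie.

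The partners of Cav1 in the caveolar coat did not pass the test with all 8 libraries. Of 10 tested caveolae genes, 1 was called, Cav1 itself, and the median log2 fold change of the list was -0.01. Without knockout B, 2 were called, Cav1 as lower and Cavin1 as higher. Cav2, which forms mixed complexes with caveolin-1, lies beside it on chromosome 6 and had 4.7, 6.93, 6.04 and 4.66 CPM in knockouts A to D, against 4.35, 4.87, 3.66 and 3.8 CPM in wild types A to D (0.42 ± 0.19, adjusted p 0.262). The coat protein gene Cavin1 averaged 14.1 ± 3.12 CPM in knockouts and 11.3 ± 0.986 CPM in wild types, with an adjusted p of 0.323. Cavin2 averaged 10.1 ± 1.74 CPM in knockouts and 12.4 ± 2.85 CPM in wild types, with an adjusted p of 0.407. The groups overlapped for each of these 3 genes. For Cavin1 the overlap came from knockout B. Its values were 16.8, 9.66, 15.6 and 14.5 CPM in knockouts A to D, and 10.4 to 12.3 CPM in the wild types. The neck proteins Ehd1, Ehd2 and Ehd4 had adjusted p values of 0.396 to 0.52, and the membrane-bending proteins Pacsin2 and Pacsin3 stood at 97.4% and 101% of the wild-type mean. Plvap, which forms the diaphragm of caveolae and fenestrae, stood at 46.8 ± 7.89 CPM in knockouts and 48.1 ± 4.76 CPM in wild types. The muscle genes Cav3 and Cavin4 had at most 2 counts in any of the 8 libraries, and Cavin3 stayed below 1 CPM in all of them.

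**Figure D1:**
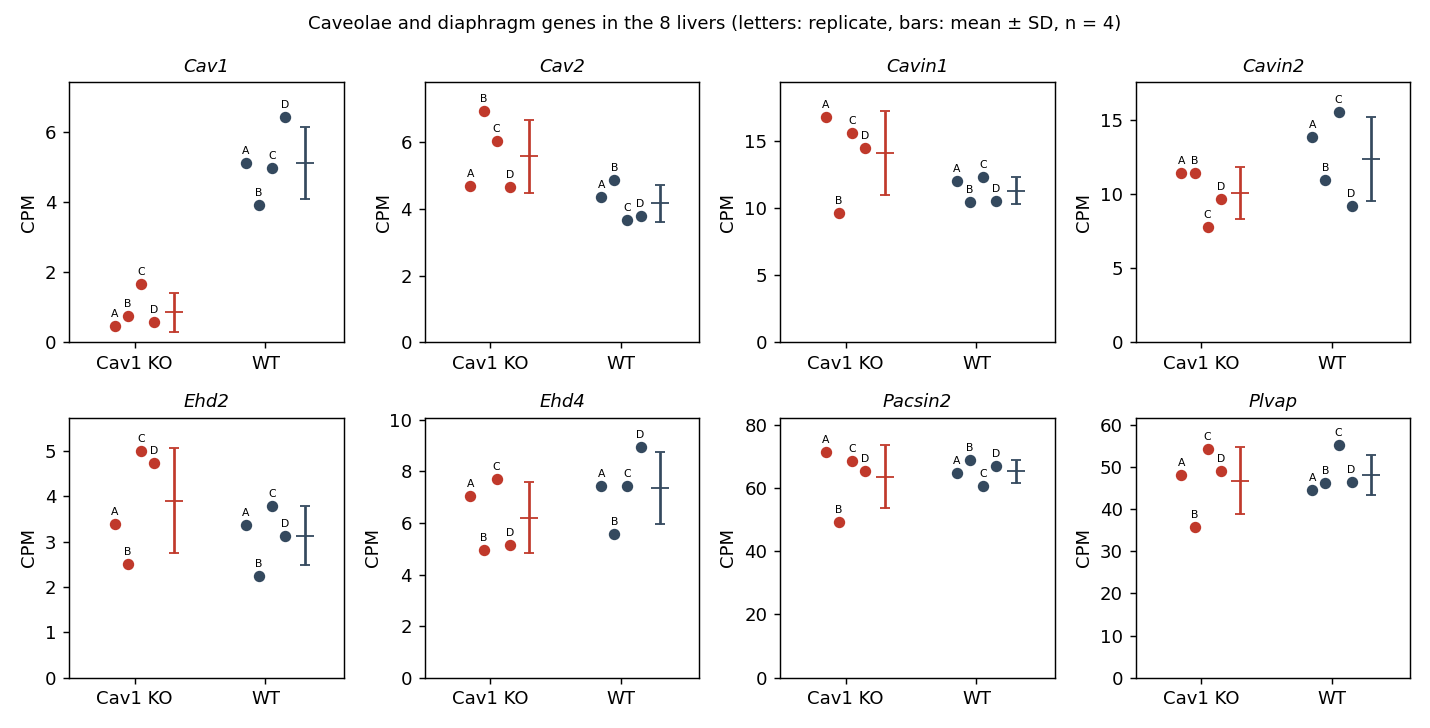
CPM (vertical axes, linear from 0) of 8 caveolae and diaphragm genes in the 4 Cav1 knockout livers (red) and the 4 wild-type livers (dark blue), one point per liver with its replicate letter and the mean ± SD beside it. Cav1 separates the groups, and the points of Cav2, Cavin1, Cavin2, Ehd2, Ehd4, Pacsin2 and Plvap overlap between them.

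Across all genes, 333 were higher and 274 lower in the knockouts at an adjusted p under 0.05, out of 12978 tested. That is 4.68% called in either direction, 2.57% higher and 2.11% lower, and these shares are the background for the counts of listed genes below. The 2 groups of 4 libraries did not overlap for 13% of all tested genes, and for 596 of the 607 called ones. Of the called genes, 166 were more than 2-fold higher and 109 more than 2-fold lower, and the median over all tested genes was 0.02 on the log2 scale. The count depends on each wild-type library. It was 330 without wild type A, 402 without B, 370 without C and 372 without D, and between 477 and 671 when a knockout library was left out, with 671 without knockout B. In all, 275 of the 607 genes were called without each of the 8 libraries in turn, 152 of them higher and 123 lower.

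The 20 largest falls and rises were taken among called genes with separate groups, at least 1 CPM in the higher group and a symbol that is not a predicted gene. Among these falls were genes with few or no reads in the knockouts. Cebpe, a transcription factor of granulocyte maturation on chromosome 14, had no read in any knockout liver, against 18, 18.9, 19.7 and 18.7 CPM in wild types A to D. With 3 counts over the group as the floor, it was at least 342-fold lower. Lrit2 on the same chromosome, which codes for a membrane protein best known from the retina, had no read in the knockouts either, against 9.13, 5.74, 6.49 and 8.22 CPM in wild types A to D, and was at least 134-fold lower. Its neighbour Lrit1, a retinal membrane protein of photoreceptors, had 0.391, 0.369, 0.787 and 0.212 CPM in knockouts, against 21.5, 17.7, 17 and 19.3 CPM in wild types. Dct, an enzyme of melanin synthesis that also lies on chromosome 14, had 1 read in the 4 knockouts and 5.06 to 8.53 CPM in the wild types. Each of these 4 genes was called without any 1 of the 8 libraries.

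The 20 largest falls held genes of varied function. Ces2g, a carboxylesterase that cleaves ester bonds of lipids and drugs, had 1.89, 2.65, 2.19 and 1.76 CPM in knockouts A to D, against 43.7, 40, 48.9 and 42 CPM in wild types A to D (-4.36 ± 0.14, adjusted p 3.94e-08). Its level in the knockouts was 4.87% of the wild-type mean. Serpine2, an inhibitor of thrombin and plasminogen activators, averaged 0.992 ± 0.452 CPM in knockouts and 18.9 ± 3.97 CPM in wild types (-4.26 ± 0.29, adjusted p 1.31e-05). Ppp1r3e, a subunit that directs protein phosphatase 1 to glycogen, fell to 1.08 ± 0.338 CPM in knockouts, against 8.22 ± 1.2 CPM in wild types. The muscarinic receptor Chrm3 fell to 0.0935 ± 0.0929 CPM in knockouts, against 1.75 ± 1.18 CPM in wild types (adjusted p 0.0105). Others of the 20 largest falls were Kcnk10, Grid1, Disp2, Crybg2, Zfp125, Rgr, Serpina1e, Fam25c, Cyp2c40, Lpar2 and Adgb. Of the 20, Adgb alone lost its call when a library was left out, knockout A, with an adjusted p of 0.0505.

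The largest rises were in genes near 0 in wild types. Myom2, a structural protein of the muscle sarcomere, had 27.2, 21.4, 29.9 and 11 CPM in knockouts A to D and no read in the wild types, which makes it at least 466-fold higher against the same floor. Ckm and Acta1, defining markers of skeletal muscle, had no read in the wild types, and the knockouts had no read of Acta1 and at most 0.0875 CPM of Ckm. Serpina3c, a member of the antichymotrypsin family of protease inhibitors, had 49.9, 79.1, 66 and 50 CPM in knockouts, against 0.351, 0.187, 0.189 and 0.0614 CPM in wild types (8.25 ± 0.30, adjusted p 1.39e-07). Gdpd3, a phosphodiesterase of lysophospholipids, had 12.3, 10.8, 8.31 and 7.2 CPM in knockouts, against 0.281, 0.125, 0.126 and 0 CPM in wild types. Separate groups were part of the choice of the largest rises.

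Ctse, the aspartic protease cathepsin E, averaged 32.7 ± 15.3 CPM in knockouts and 0.471 ± 0.223 CPM in wild types (6.07 ± 0.45, adjusted p 0.00011). Cyp2c39, a cytochrome of retinoid metabolism, had 52.5, 57.3, 43.2 and 134 CPM in knockouts, against 0.773, 1.25, 0.757 and 3.56 CPM in wild types. Knockout D was the highest of the 8 livers for both. Ren1, the renin of the kidney, rose to 2.33 ± 0.774 CPM in knockouts, against 0.0636 ± 0.0869 CPM in wild types, and the serotonin receptor Htr1d to 3.5 ± 1.9 CPM, with 1 read in the 4 wild types. Of 14 tested genes on the mitochondrial chromosome, 1 was called, mt-Nd3, a subunit of respiratory complex I, with 11.1, 20.8, 7.17 and 12.3 CPM in knockouts A to D, against 0.281, 0.437, 0.126 and 0.0614 CPM in wild types A to D (5.79 ± 0.49, adjusted p 0.000113). Of the 8 tested genes of the list of mitochondrially encoded genes, 1 rose, and with the length trend removed 1 rose and 3 fell. Others of the 20 largest rises were BC018473, AC115117.1, Nuggc, AA465934, Phyhip, AC127331.2, Pcna-ps2, Klhl33, Eif5al3-ps, Vmn1r51 and Eif3j2. Of the 20, Vmn1r51 alone lost its call, without any of the 4 wild types (adjusted p 0.073 to 0.104), and Gm20426, which overlaps it, was also called. AA465934 and Vmn1r51 were highest in knockout B, with 23.2 and 20.7 CPM, against at most 7.9 and 4.94 CPM in the other knockouts.

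The 38 livers of the Plvap line give a further level for each gene, with all 46 libraries scaled together. They differ from both groups in line, fast, and for some in diet, so the levels are a description. All of the 20 largest rises and 16 of the 20 largest falls had a median in these 38 livers nearer to the wild-type than to the knockout mean on the log2(CPM + 0.5) scale. Grid1, Rgr and Lpar2 were among the 4 exceptions. The refed livers had 0% mitochondrial counts, so they give no level for mt-Nd3, which is among the rises. Cebpe ranged from 2.99 to 9.05 CPM in the 38 livers (median 5.86), with 0 CPM in Cav1 knockouts and a mean of 17.1 CPM in wild types on this scale. Myom2 reached at most 0.204 CPM in the 38 livers, against a mean of 20.1 CPM in Cav1 knockouts and 0 CPM in wild types. Of the 62 called genes with more than 16-fold change, 60 (96.8%) were nearer to the wild types, and of the 130 with more than 4-fold change, 106 (81.5%). Of the 332 called genes with changes under 2-fold, 126 (38%) were, close to the 37.6% of the 12371 genes that were not called.

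**Figure D2:**
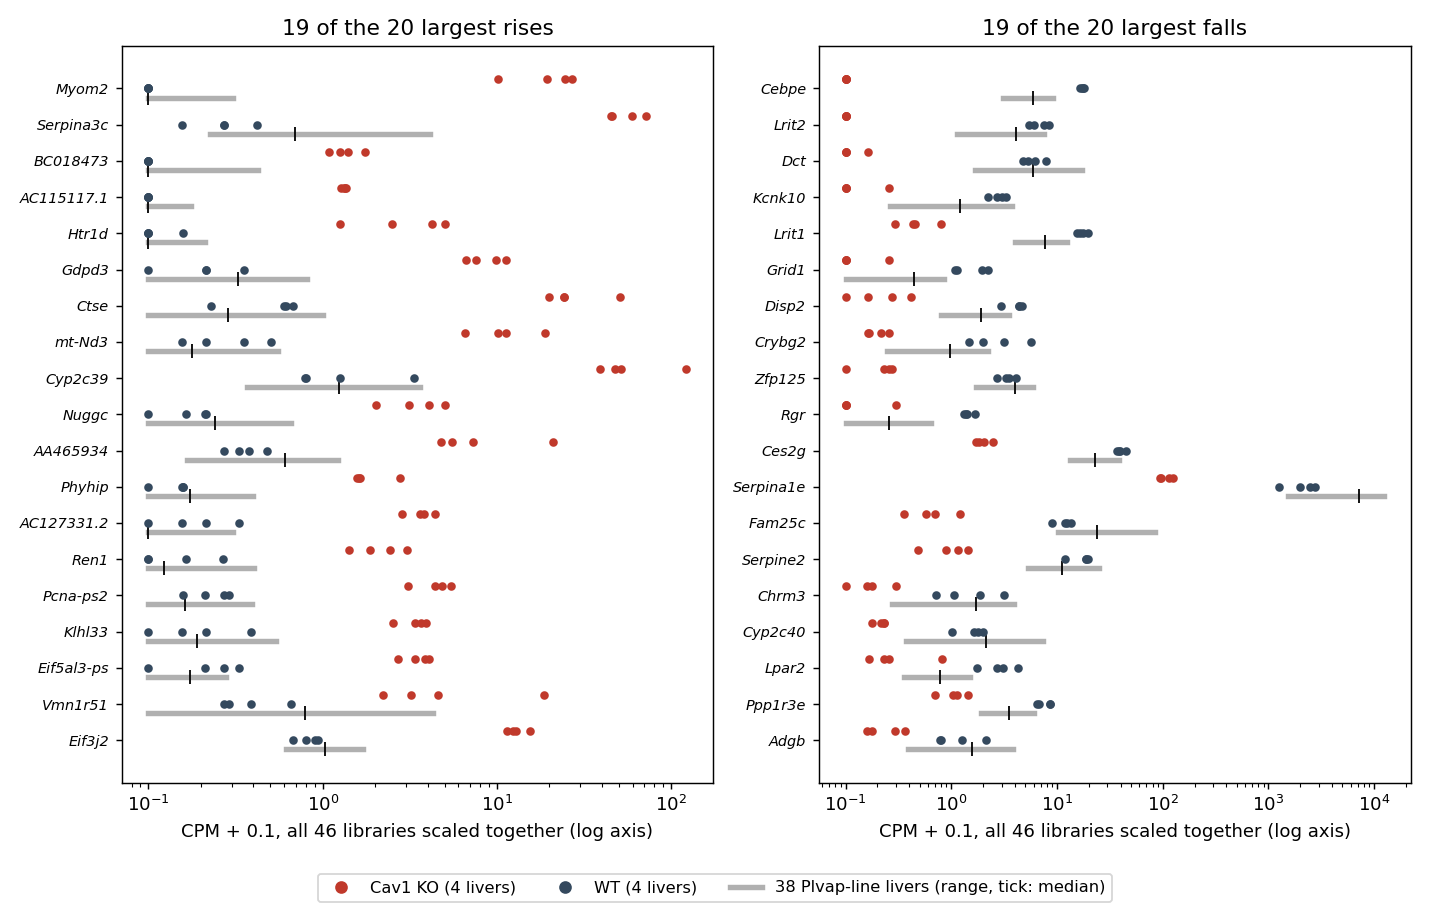
Levels of 19 of the 20 largest rises (left) and 19 of the 20 largest falls (right) between Cav1 knockouts and wild types, in CPM plus 0.1 with all 46 libraries scaled together, on a log axis. Red points are the 4 Cav1 knockout livers, dark blue points the 4 wild-type livers, and grey bars the range of the 38 Plvap-line livers with a tick at their median. The grey bars of the rises shown lie below the red points, except for Vmn1r51, where they overlap.

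The serine protease inhibitors of the Serpina gene cluster on chromosome 12 changed in both directions. These genes encode abundant plasma proteins made by hepatocytes: the Serpina1 genes code for alpha-1-antitrypsin, which inhibits neutrophil elastase, and the Serpina3 genes for relatives of antichymotrypsin. Of 16 tested members of the list, 5 rose and 3 fell, and the median log2 fold change was 0.18. Without single libraries 4 or 5 members rose and 3 or 4 fell. The mouse genome carries several copies of Serpina1 with nearly the same sequence, and their promoters are printed here because the copies differ in how far they fell. The RefSeq sequence of 250 bases before to 50 after the annotated start is given on the minus strand of GRCm38.p6, with capitals marking the letters GTTAAT, the core of the motif bound by the hepatocyte factor HNF1. The windows lie at chr12:103956848-103957147, chr12:103773584-103773883 and chr12:103904901-103905200.
Serpina1e: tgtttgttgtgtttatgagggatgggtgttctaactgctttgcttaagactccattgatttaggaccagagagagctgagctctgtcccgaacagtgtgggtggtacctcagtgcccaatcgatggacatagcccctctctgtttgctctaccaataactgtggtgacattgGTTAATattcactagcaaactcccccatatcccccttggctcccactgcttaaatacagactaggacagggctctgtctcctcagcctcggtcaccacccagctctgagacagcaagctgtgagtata
Serpina1d: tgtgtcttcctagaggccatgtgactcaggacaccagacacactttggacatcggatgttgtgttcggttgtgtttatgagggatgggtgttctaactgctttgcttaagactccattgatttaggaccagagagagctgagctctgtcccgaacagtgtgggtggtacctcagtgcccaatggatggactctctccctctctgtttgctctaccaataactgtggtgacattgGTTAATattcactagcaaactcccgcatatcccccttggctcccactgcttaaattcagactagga
Serpina1c: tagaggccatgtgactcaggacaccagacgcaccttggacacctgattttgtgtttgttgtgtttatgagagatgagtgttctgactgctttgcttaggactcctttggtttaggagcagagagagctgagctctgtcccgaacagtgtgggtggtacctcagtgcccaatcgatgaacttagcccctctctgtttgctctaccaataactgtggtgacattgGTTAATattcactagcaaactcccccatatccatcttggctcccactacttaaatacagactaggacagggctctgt

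All 5 Serpina1 promoters held GTTAAT once, searched on both strands, as did 7.1% of the 32851 promoter windows in the table at least once. The windows of Serpina1e and Serpina1d aligned with 230 identical and 8 different positions and were offset by gaps. Serpina1e had 237 identical and 12 different positions with Serpina1c, 244 and 4 with Serpina1b, and 233 and 10 with Serpina1a. Any link between promoter likeness and the change of each copy was not tested. The sequences are of the reference genome, not of the knockout stock.

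Serpina1e had 125, 139, 105 and 106 CPM in knockouts A to D, against 2719, 2139, 3010 and 1386 CPM in wild types A to D (-4.28 ± 0.25, adjusted p 1.08e-05). It stood at 5.14% of the wild-type mean. Serpina1d fell to 619 ± 60.8 CPM in knockouts, against 1349 ± 65 CPM in wild types (-1.12 ± 0.10, adjusted p 7.51e-05). Serpina1b fell to 2065 ± 108 CPM in knockouts, against 2839 ± 149 CPM in wild types, with an adjusted p of 0.0128. Serpina1c averaged 1282 ± 116 CPM in knockouts and 1428 ± 122 CPM in wild types, with overlapping groups and an adjusted p of 0.417. Serpina1a averaged 983 ± 98.4 CPM in knockouts and 749 ± 61.6 CPM in wild types and missed the threshold (adjusted p 0.0598), although its groups did not overlap. The 5 copies together summed to 5067 ± 370 CPM in knockouts and 8678 ± 821 CPM in wild types. Reads that match several copies cannot be placed with certainty, and the handling of such reads is not given in the sources used here, so the split between the copies is uncertain. The same holds for the predicted gene Gm8893, whose annotated span lies within that of Serpina1b, as does that of Serpina1d. Gm8893 had 652, 725, 664 and 712 CPM in knockouts A to D, against 7.87, 9.3, 9.77 and 6.75 CPM in wild types A to D.

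On the same stretch of chromosome 12, Serpina11, a less studied family member, had 133, 154, 132 and 133 CPM in knockouts, against 32.9, 35.7, 37.3 and 28.1 CPM in wild types (2.04 ± 0.11, adjusted p 1.61e-06). Serpina10, an inhibitor of coagulation factors that acts with protein Z, rose to 262 ± 48 CPM in knockouts, against 166 ± 4.58 CPM in wild types. Serpina3m averaged 356 ± 46.3 CPM in knockouts and 182 ± 22.7 CPM in wild types (0.97 ± 0.12, adjusted p 0.00108). Serpina3n, the main acute phase member, stood at 147% of the wild-type mean (0.55 ± 0.12), and its adjusted p of 0.0308 was over the threshold without wild types A, B or C or knockouts A, C or D (0.0543 to 0.111). Every knockout lay above every wild type in these 4 genes.

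**Figure D3:**
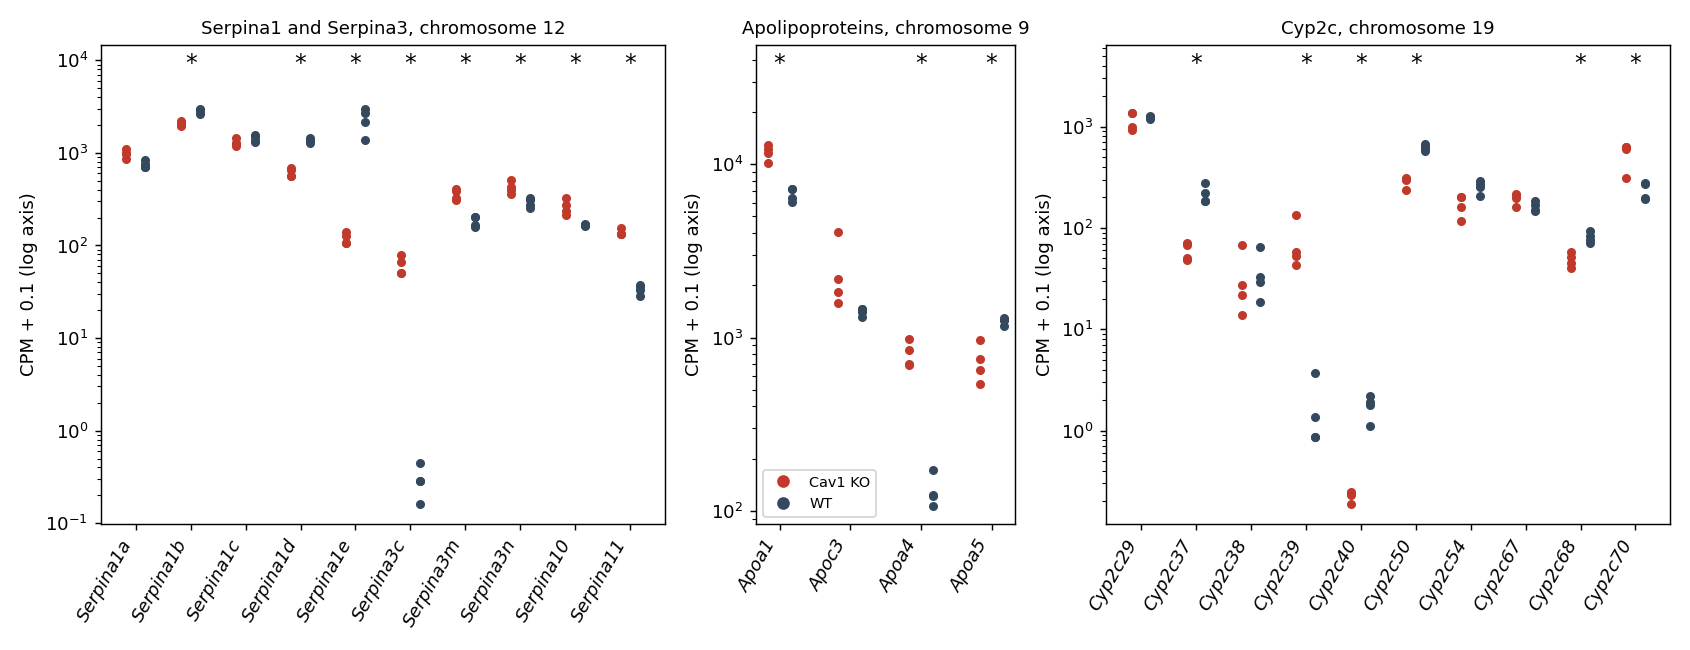
CPM plus 0.1 on log axes of genes in the Serpina cluster (left), the apolipoprotein cluster of chromosome 9 (middle) and the Cyp2c cluster of chromosome 19 (right), with red points for the 4 Cav1 knockout livers left of dark blue points for the 4 wild-type livers. Asterisks mark an adjusted p under 0.05, and within each cluster some genes are higher and others lower in the knockouts.

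Of 22 tested apolipoproteins, 5 rose and 1 fell, or 27.3%, with a median log2 fold change of 0.20. The median was 0.05 with the length trend removed. Apoa4, which is carried on chylomicrons and high-density lipoprotein and follows hepatic lipid load, had 851, 987, 702 and 693 CPM in knockouts A to D, against 123, 122, 107 and 173 CPM in wild types A to D (2.62 ± 0.17, adjusted p 1.08e-05). Apoa1, the main protein of high-density lipoprotein, had 12209, 12858, 10165 and 11577 CPM in knockouts, against 6076, 7152, 7228 and 6382 CPM in wild types (0.80 ± 0.11, adjusted p 0.00143). The lowest knockout lay above the highest wild type in both. Apoc3, an inhibitor of lipoprotein lipase that lies between them, had 1830, 4070, 1580 and 2166 CPM in knockouts, against 1307, 1470, 1409 and 1456 CPM in wild types (adjusted p 0.173). Apoa5 of the same cluster, which promotes the action of lipoprotein lipase, fell to 728 ± 185 CPM in knockouts, against 1243 ± 50.8 CPM in wild types (-0.77 ± 0.16, adjusted p 0.0191). That call was lost without any of the 4 wild types or knockout A (adjusted p 0.0548 to 0.0574). The neighbours Apon and Apof on chromosome 10 rose by 0.65 ± 0.10 and 0.49 ± 0.09 on the log2 scale, and the call on Apof was lost with the length trend removed (adjusted p 0.0664). Apom, the carrier of sphingosine-1-phosphate on high-density lipoprotein, averaged 251 ± 46.9 CPM in knockouts and 141 ± 23.1 CPM in wild types, and its call was lost without wild type A (adjusted p 0.0524). The receptor of high-density lipoprotein, Scarb1, averaged 221 ± 20.4 CPM in knockouts and 161 ± 15.2 CPM in wild types (adjusted p 0.0299, and 0.0503 to 0.111 without any of the wild types or without knockouts A or C).

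The other lists of lipid handling genes held at most 4 calls each. Of 40 genes for lipid droplets and the uptake of fatty acids, 2 rose and 2 fell, with a median of -0.09. These calls were 10% of the list, against 4.68% of all tested genes. Lpl, the lipoprotein lipase of capillary walls, had 65.6, 29.7, 54.2 and 23.1 CPM in knockouts A to D, against 13.1, 8.93, 12.2 and 11.2 CPM in wild types A to D (1.93 ± 0.33, adjusted p 0.0153). Abhd5, the activator of adipose triglyceride lipase, averaged 31.9 ± 4.07 CPM in knockouts and 21.6 ± 1.44 CPM in wild types. Both calls were lost without wild types B, C or D (adjusted p 0.0509 to 0.0615). Pparg, a driver of lipid storage, averaged 6.53 ± 2.1 CPM in knockouts and 14.8 ± 4.07 CPM in wild types, and the fatty acid transporter Slc27a1 8 ± 1.08 CPM in knockouts and 15.8 ± 6.09 CPM in wild types. These 2 falls passed with all 8 libraries (adjusted p 0.0307 and 0.0484), and not without wild types A or D or knockouts A, B or C, nor, for Pparg, without wild type B or, for Slc27a1, without knockout D (adjusted p 0.0594 to 0.116). The list's 4 calls became 2 without wild type A or knockouts A or C, 1 without wild type B and 0 without wild type D.

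Of 27 cholesterol synthesis genes, 2 rose and none fell (7.41% called, against 4.68% of all tested genes), and 22 had a positive log2 fold change (median 0.28). Sqle, squalene epoxidase, averaged 92.6 ± 29.2 CPM in knockouts and 41.9 ± 7.27 CPM in wild types (1.14 ± 0.23, adjusted p 0.0225), and Mvk, mevalonate kinase, 32.1 ± 7.13 CPM in knockouts and 18.4 ± 2.53 CPM in wild types. The call on Sqle was lost without any of the 4 wild types or knockout B, and that on Mvk without wild types A, B or D (adjusted p 0.0509 to 0.0902). The list's 2 calls became 0 without wild types A, B or D, 1 without wild type C or knockout B, and 7 without knockout C. Of 30 lipogenesis genes, 3 fell (10%), among them Aacs and Lpin2. Aacs, which turns ketone bodies into acetoacetyl-CoA for lipid synthesis, fell to 58.5 ± 13.8 CPM in knockouts, against 123 ± 27.8 CPM in wild types (-1.07 ± 0.20, adjusted p 0.0136). The phosphatidate phosphatase Lpin2 fell with an adjusted p of 0.0401, a call lost without wild types A, C or D or knockouts A, C or D (adjusted p 0.0629 to 0.123) and with the length trend removed (0.12). The 3 calls became 1 without wild types A, C or D or knockout C, and 6 without wild type B. None of 33 PPARA targets, 34 fatty acid oxidation genes or 7 ketogenesis genes was called, with medians of -0.28, -0.11 and 0.10. Without knockout B, 1 PPARA target fell, and 1 ketogenesis gene rose and 1 fell; with the length trend removed, 1 PPARA target fell.

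Cytochromes of the Cyp2c family changed in opposite directions within their cluster on chromosome 19. Cytochromes P450 oxidise drugs, steroids, fatty acids and retinoids, and several are made around the central vein. Of 33 tested Cyp genes of drug metabolism, 2 rose and 5 fell (21.2%). The promoters of Cyp2c37 and Cyp2c50 are shown because both genes fell and are near copies. They are the plus strand of GRCm38.p6 at chr19:39992174-39992473 and chr19:40089429-40089728, from RefSeq, with capitals marking the bases that differ or are unpaired in a global alignment of the pair.
Cyp2c37: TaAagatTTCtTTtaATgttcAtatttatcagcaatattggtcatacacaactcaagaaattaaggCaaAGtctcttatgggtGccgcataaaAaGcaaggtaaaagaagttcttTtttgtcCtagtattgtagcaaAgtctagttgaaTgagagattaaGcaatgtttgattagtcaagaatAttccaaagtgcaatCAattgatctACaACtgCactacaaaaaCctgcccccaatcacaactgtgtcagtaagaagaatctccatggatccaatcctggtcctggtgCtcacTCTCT
Cyp2c50: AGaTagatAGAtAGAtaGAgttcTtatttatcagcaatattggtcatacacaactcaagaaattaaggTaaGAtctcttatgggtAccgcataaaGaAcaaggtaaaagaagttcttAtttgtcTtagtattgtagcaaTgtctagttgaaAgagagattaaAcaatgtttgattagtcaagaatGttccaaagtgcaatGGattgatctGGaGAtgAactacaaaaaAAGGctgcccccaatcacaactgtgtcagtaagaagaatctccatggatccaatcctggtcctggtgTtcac

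The pair had 264 identical and 31 different positions. Cyp2c37 and the promoter of Cyp2c29, whose level did not pass the test, had 190 identical and 82 different ones. With Cyp2c39, which rose, Cyp2c37 had 188 identical and 96 different positions, and with Cyp2c40, which fell, 149 and 134. Any link between promoter likeness and these changes was not tested. Cyp2c37 had 68.2, 47.6, 50 and 70.4 CPM in knockouts A to D, against 184, 275, 182 and 219 CPM in wild types A to D (-1.86 ± 0.17, adjusted p 0.000145). Cyp2c50 had 296, 301, 238 and 310 CPM in knockouts, against 576, 673, 606 and 623 CPM in wild types (-1.11 ± 0.10, adjusted p 0.000126). The groups were separate for both. Cyp2c68 fell to 48.6 ± 7.82 CPM in knockouts, against 80.6 ± 9.78 CPM in wild types, and the female-biased Cyp2c40 to 0.127 ± 0.027 CPM, against 1.65 ± 0.458 CPM in wild types. Cyp2c70, which makes the muricholic acids of mouse bile, averaged 543 ± 155 CPM in knockouts and 235 ± 46.2 CPM in wild types, with 312 CPM in knockout D and 598 to 634 CPM in the other knockouts. Its adjusted p of 0.0206 was over the threshold without wild types A or D or knockouts A, B or C (0.0545 to 0.0729). Cyp2c29 stood at 1162 ± 244 CPM in knockouts and 1228 ± 35.4 CPM in wild types (adjusted p 0.788), and Cyp2c54, Cyp2c38 and Cyp2c67 were not called either. As for Serpina1, reads shared between these copies make the split uncertain. On chromosome 7, Cyp2a5, an enzyme of coumarin and nicotine oxidation with a close paralog, fell to 369 ± 38.4 CPM in knockouts, against 843 ± 152 CPM in wild types (-1.19 ± 0.14, adjusted p 0.000484).

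A similar pattern was seen among the Ugt1a genes of chromosome 1, which were looked at after their values were seen. They encode enzymes that couple bilirubin and drugs to glucuronic acid, and each joins its own first exon to exons common to all. Ugt1a9 had 190, 142, 153 and 225 CPM in knockouts A to D, against 10.7, 11.9, 10.4 and 15.3 CPM in wild types A to D (3.87 ± 0.19, adjusted p 9.79e-07). Ugt1a1, the bilirubin enzyme, fell to 52.5 ± 7.06 CPM in knockouts, against 130 ± 14.6 CPM in wild types (-1.31 ± 0.12, adjusted p 0.000113). Ugt1a6b and Ugt1a5 fell by 1.28 ± 0.13 and 2.22 ± 0.34 on the log2 scale, and the call on Ugt1a5 was lost without knockout B (adjusted p 0.0521). The 7 tested Ugt1a genes summed to 258 ± 41.5 CPM in knockouts and 216 ± 15.9 CPM in wild types, ranges that overlapped. Reads in the common exons cannot be assigned to 1 of them.

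Zonation lists held some of the same genes. Of 28 pericentral genes, 4 fell (Cyp2c50, Cyp2c37, Cyp2a5 and the glutamate transporter Slc1a2) and Slc1a4, a neutral amino acid transporter, rose. The calls on Slc1a2 and Slc1a4 had adjusted p values of 0.0345 and 0.0294 and were each lost without 6 libraries (0.052 to 0.12): Slc1a2 without any of the wild types or knockouts C or D, and Slc1a4 without wild types B, C or D or knockouts A, C or D. The list's 5 calls became 3 without wild types B, C or D or knockout C. Of 26 periportal genes, 5 rose and 1 fell, with medians of 0.07 for the periportal and -0.14 for the pericentral list. Ctsc, the dipeptidyl peptidase cathepsin C, had 109, 106, 127 and 85 CPM in knockouts A to D, against 54.6, 55.9, 54 and 56.7 CPM in wild types A to D (0.95 ± 0.11, adjusted p 0.000744). Aldh1b1, a mitochondrial aldehyde dehydrogenase, rose to 116 ± 16.3 CPM in knockouts, against 63.3 ± 13 CPM in wild types. The cell adhesion protein Cdh1 averaged 61.5 ± 17.2 CPM in knockouts and 24.9 ± 7.39 CPM in wild types (adjusted p of 0.03, and 0.0612 to 0.0846 without wild types A or C or knockouts A, B or C). Apoa4 and Apof made up the other rises. Gls2, the liver glutaminase, fell to 345 ± 25 CPM in knockouts, against 473 ± 18.4 CPM in wild types, a call lost without wild type C (adjusted p 0.0528). Of 23 genes of glucose output, 1 fell, the glycogen branching enzyme Gbe1 (-0.60 ± 0.13, adjusted p 0.0223, and 0.052 to 0.0711 without wild types A, C or D or knockouts A or C).

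Acute phase and plasma defence proteins were called in 1 direction, upward, and most of these calls were lost with the length trend removed. Of 31 acute phase genes 6 rose and none fell, with a median of 0.52, and of 42 complement and coagulation genes 6 rose and none fell, with a median of 0.14. Itih3, which binds hyaluronan in the extracellular matrix, averaged 896 ± 153 CPM in knockouts and 522 ± 42.6 CPM in wild types (0.78 ± 0.13, adjusted p 0.0057). Cfi, the protease that cleaves complement C3b and C4b, had 718, 665, 747 and 735 CPM in knockouts A to D, against 492, 539, 532 and 521 CPM in wild types A to D (0.46 ± 0.08, adjusted p 0.00956). With Serpina3m, these genes were called without each library in turn. The fibrinogen chains Fgg and Fgb, the heme-binding protein Hpx, the plasmin inhibitor Serpinf2, complement C9 and coagulation factor F10 rose by 0.35 to 0.62 on the log2 scale, and each lost its call without 3 to 7 of the 8 libraries, wild type D among them for every one (adjusted p 0.0533 to 0.159). With the length trend removed, 2 genes of each list rose, Serpina3m and Itih3 of the acute phase list and Cfi and Serpinf2 of the complement and coagulation list. The adjusted p was then 0.0762 for Fgg, 0.0572 for Fgb, 0.157 for Hpx, 0.11 for Serpina3n, 0.0879 for F10 and 0.0506 for C9. Without knockout B, 8 genes of each list rose. The acute phase count became 2 without wild type A and 3 without wild types B, C or D. The complement and coagulation count became 2 without wild types A or B or knockout A, and 1 without wild type D. Of 40 interferon genes, 3 rose. Xaf1, a proapoptotic interferon target, averaged 14 ± 5.01 CPM in knockouts and 4.05 ± 1.06 CPM in wild types, and Stat2, a subunit of the interferon transcription factor, 74.8 ± 11.3 CPM in knockouts and 45 ± 4.18 CPM in wild types. The third, the guanosine triphosphatase Iigp1, lost its call without any of the wild types (adjusted p 0.0579 to 0.0738). None of 22 MHC genes was called.

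Markers of the cells that carry most caveolae moved little. In bulk liver, fewer cells of a type and less RNA per cell cannot be told apart. Of 33 endothelial genes, 1 was called: Clec4g, a lectin of sinusoidal endothelium, had 40.2, 38.9, 36 and 33.6 CPM in knockouts A to D, against 56.3, 61.3, 59.2 and 61.2 CPM in wild types A to D (-0.68 ± 0.09, adjusted p 0.0011). The other defining markers Stab2, Cdh5 and Pecam1 had adjusted p values of 0.336, 0.853 and 0.989, and the list summed to 744 to 999 CPM in knockouts and 920 to 1035 CPM in wild types. Without wild type B or knockouts B or C, 2 endothelial genes were called. Lrat, Reln, Des and Pdgfrb, the defining markers of stellate cells, had adjusted p values of 0.282 to 0.933, and the 25 listed stellate genes summed to 891 to 995 CPM in knockouts and 872 to 1023 CPM in wild types. Of 34 fibrogenesis genes, 2 rose. The matrix protein Sparc had 92, 98.7, 110 and 89.7 CPM in knockouts A to D, against 53.4, 48.8, 55.7 and 53.9 CPM in wild types A to D (0.88 ± 0.09, adjusted p 0.000247), and the proteoglycan Lum averaged 10.7 ± 2.82 CPM in knockouts and 4.79 ± 0.391 CPM in wild types.

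None of 23 Kupffer cell genes, 6 lymphocyte and neutrophil genes, 9 cholangiocyte genes or 5 red cell genes was called. The cholangiocyte list summed to 242 to 254 CPM in knockouts and 183 to 222 CPM in wild types, and its part in the results was not tested. Of 26 markers of muscle, fat and pancreas none passed the filter on low counts, and the list summed to at most 2.43 CPM in knockouts and 3.25 CPM in wild types. Among hepatocyte markers, Alb rose (78302 ± 12120 CPM in knockouts and 54053 ± 4499 CPM in wild types, adjusted p 0.0406), a call lost without any of the wild types or without knockouts A or D (0.0855 to 0.144) and with the length trend removed (0.0611), and Apob, Ttr, Cps1, Cyp2e1 and Ass1 were not called.

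Lists of signalling and growth held 1 to 4 calls. Nostrin, which binds endothelial nitric oxide synthase at the membrane, was the only call among 18 genes of nitric oxide signalling, with 19.3, 21.2, 20.6 and 19.9 CPM in knockouts A to D, against 16.6, 13.4, 14.3 and 14.8 CPM in wild types A to D (0.45 ± 0.10, adjusted p 0.0281). The call was lost without wild types B, C or D or knockouts A, C or D (adjusted p 0.053 to 0.0923) and with the length trend removed (0.101), and without knockout B 1 gene of the list rose and 1 fell. Of 25 cell cycle genes, 2 rose and 2 fell (16%, against 4.68% of all tested genes). These 4 calls became 2 without wild types C or D. Ccnd1, the cyclin of the G1 phase, averaged 36.2 ± 5.01 CPM in knockouts and 17 ± 0.856 CPM in wild types (1.09 ± 0.11, adjusted p 0.000246). Pcna, the clamp of DNA polymerase, averaged 15 ± 1.82 CPM in knockouts and 22.3 ± 1.37 CPM in wild types, and Mcm6, a subunit of the replicative helicase, 1.27 ± 0.436 CPM in knockouts and 3.58 ± 0.819 CPM in wild types. Pcna lost its call without wild type C (adjusted p 0.0532) and Mcm6 without wild type D (0.0565). Pcna-ps2, by its symbol a pseudogene of Pcna, went the other way. It averaged 4.82 ± 1.12 CPM in knockouts and 0.146 ± 0.0666 CPM in wild types. Reads that match both cannot be placed with certainty, and their part in the fall of Pcna was not tested. Ccna2, the cyclin of S phase, rose with an adjusted p of 0.0435 that was over the threshold without 7 of the 8 libraries, all but wild type A (0.0502 to 0.131). Among 32 genes of insulin and growth factor signalling, 1 rose and 1 fell. The rise was that of Igfbp2, which binds insulin-like growth factors in plasma, with an adjusted p of 0.0425. It lost its call without any of the wild types or without knockouts A, B or D (adjusted p 0.0529 to 0.136). The list's 2 calls became 0 without wild types A, B or D or knockout A, and 1 without wild type C or knockouts B or D. With the length trend removed no gene of the list was called, and the adjusted p of Igfbp2 was 0.0626.

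Bile acid, hormone and stress lists also held 1 to 3 calls. Of 25 bile acid genes, Cyp2c70 rose and Abcc2, the export pump of conjugated bilirubin, fell to 441 ± 58.5 CPM in knockouts, against 611 ± 34.6 CPM in wild types. Abcc2 lost its call without any of the wild types or without knockouts C or D (adjusted p 0.0542 to 0.111). Of 30 genes of growth hormone response and male bias, Cyp2u1, a cytochrome of fatty acid oxidation, rose to 141 ± 10.8 CPM in knockouts, against 93 ± 12.8 CPM in wild types, while Serpina1e and Cyp4a12b fell. Cyp2u1 lost its call without wild type A (adjusted p 0.057), and Cyp4a12b, with 28.6 ± 5.74 CPM in knockouts and 51.7 ± 13.2 CPM in wild types, without wild types A, B or D or knockouts A, B or D (0.0618 to 0.12). Cyp2c40 was the 1 call among 11 female-biased genes, which became 3 without knockout D. The median log2 fold change of these 11 genes was -0.87 (-0.95 with the length trend removed), and 1 was positive. In the list of growth hormone response and male bias it was 0.36 (0.29 with the length trend removed), and 22 of 30 were positive. The median over all tested genes was 0.02. Of 26 genes of the unfolded protein response, the disulfide isomerase Pdia6 rose (0.53 ± 0.12, adjusted p 0.0275, and 0.0568 to 0.0916 without wild types A, C or D or knockouts A, C or D). Of 13 heat shock genes, the chaperone Hspa8 fell (-0.65 ± 0.14, adjusted p 0.0225, and 0.0585 to 0.0708 without wild types A, C or D or knockout A). Of 19 immediate early genes, Fos rose with overlapping groups (1.79 ± 0.43, adjusted p 0.04, and 0.0571 to 0.127 without wild types A, B or D or knockouts A, B or C). Scarb1, described above, was the 1 call among 14 sterol export genes. With the length trend removed, or without knockout B, 1 sterol export gene rose and 1 fell. With the length trend removed, 1 gene of the unfolded protein response rose and 1 fell.

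None of 30 antioxidant genes and none of 22 clock genes was called, except that 1 antioxidant gene fell with the length trend removed. All 79 tested ribosomal protein genes had a positive log2 fold change, with a median of 0.52 (0.36 with the length trend removed), while 1 was called, Rps29 (1.14 ± 0.16, adjusted p 0.00222). Of 78 nuclear genes of oxidative phosphorylation 72 had a positive log2 fold change, with a median of 0.26 (0.11 with the length trend removed), and 1 was called, Sdha of complex II, which fell by 0.39 ± 0.09 (adjusted p 0.0374). The call on Sdha was lost without any of the wild types or without knockouts A or C (adjusted p 0.0612 to 0.105). The ribosomal protein genes were high in knockout B, as given above, and its part in these medians was not tested.

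**Figure D4:**
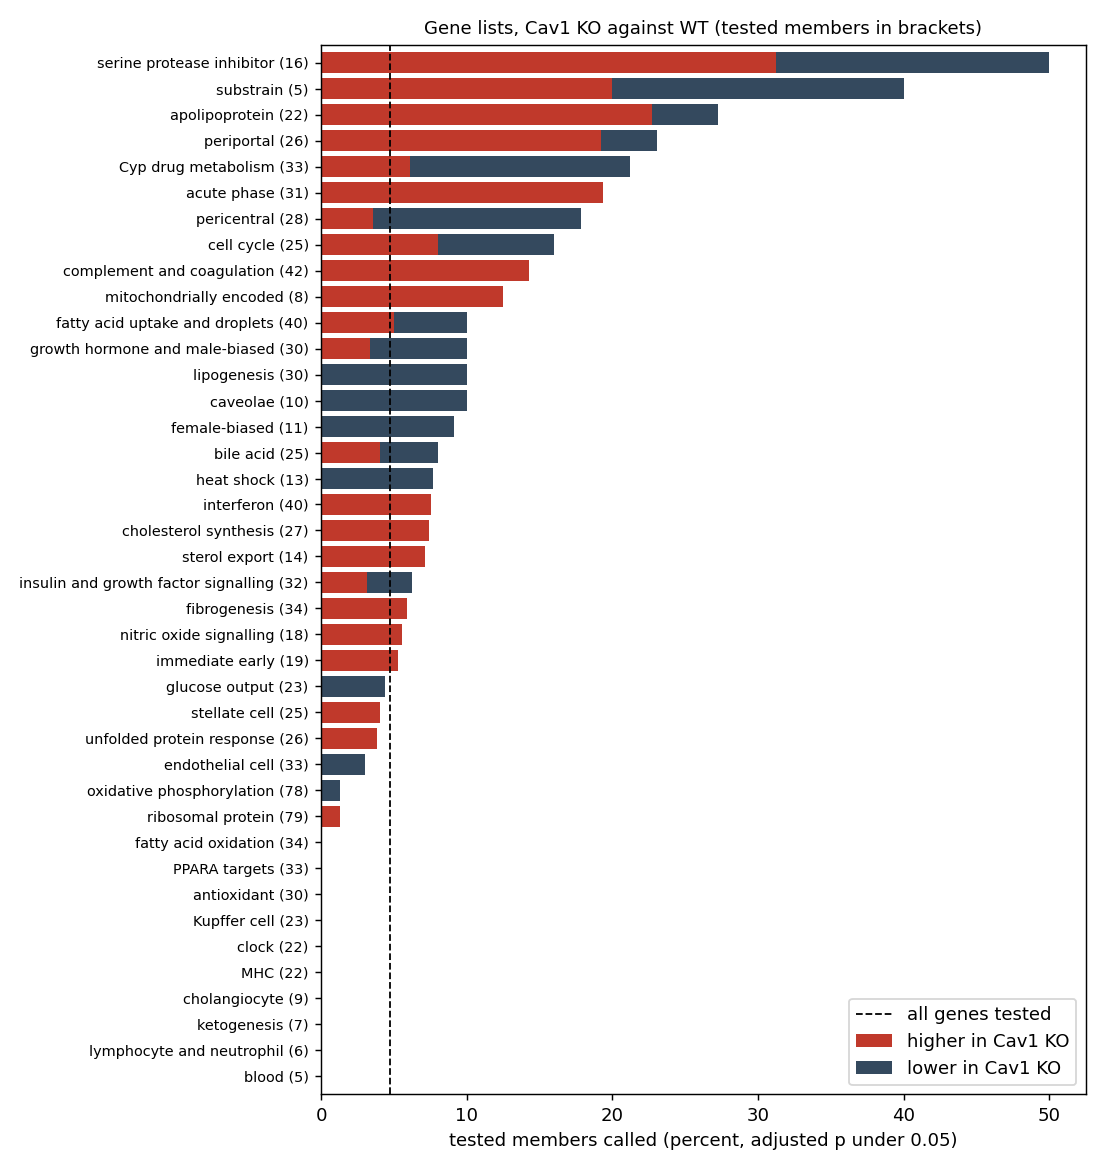
Percent of tested members called at an adjusted p under 0.05 in each gene list, split into higher (red) and lower (dark blue) in Cav1 knockouts than in wild types, with the number of tested members in brackets and a dashed line at the 4.68% called among all tested genes. Serine protease inhibitors, the short substrain list, apolipoproteins, periportal and Cyp genes lie farthest to the right.

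Genes reported to differ between C57BL/6 substrains were set beside the comparison because the wild types are C57BL/6N and the Plvap line is C57BL/6JBomTac. Of 5 tested, 1 rose and 1 fell. Wdfy1, an endosomal adaptor of toll-like receptor signalling, had 28.8, 26.8, 30.1 and 25.5 CPM in Cav1 knockouts A to D, against 39.6, 41.9, 43.8 and 40.1 CPM in wild types A to D (-0.57 ± 0.09, adjusted p 0.00374). With all 46 libraries scaled together it averaged 25.1 CPM in Cav1 knockouts and 37.7 CPM in wild types, and ranged from 17.4 to 33.5 CPM in the 38 livers of the Plvap line. Nlrp12, an inhibitory receptor of innate immunity, averaged 57.4 ± 16.5 CPM in knockouts and 35.1 ± 1.04 CPM in wild types (adjusted p 0.0374, and 0.0655 to 0.111 without any of the wild types or without knockout A). On the scale of all 46 libraries it averaged 51.7 CPM in Cav1 knockouts and 32 CPM in wild types, and ranged from 53.3 to 238 CPM in the 38 livers, above both means. Nnt, the mitochondrial transhydrogenase, had 0.783 to 1.34 CPM in knockouts and 0.946 to 1.81 CPM in wild types.

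Called genes were spread unevenly along the genome. The share called was highest on chromosome 14 (51 of 447 tested genes, 11.4%), chromosome 12 (49 of 469, 10.4%) and chromosome 8 (54 of 725, 7.45%), and lowest on chromosome 3 (11 of 642, 1.71%). Of the 5 Mb windows with at least 10 tested genes, 155 held no called gene and 15 held at least 20% called. Together these 15 held 73 of the 607 called genes among 286 tested. Among these 15, the window with the most calls lay at 50 to 55 Mb of chromosome 14, with 14 of 44 genes called, from Klhl33 (4.74 ± 0.48) and the antimicrobial ribonuclease Rnase4 to Cebpe. A window at 45 to 50 Mb of chromosome 9 held 8 of 28, among them Apoa1, Apoa4 and Apoa5, and one at 100 to 105 Mb of chromosome 12 held 13 of 56, with the serpins described above. Around Cav1 itself, within 5 Mb, Cav1 was the only call among 20 tested genes, and within 10 Mb 2 of 37 were called. The second, Fam3c, which encodes a secreted factor of epithelial plasticity, rose to 54.6 ± 10.2 CPM in knockouts, against 30.8 ± 2.03 CPM in wild types (0.83 ± 0.13, adjusted p 0.00434).

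**Figure D5:**
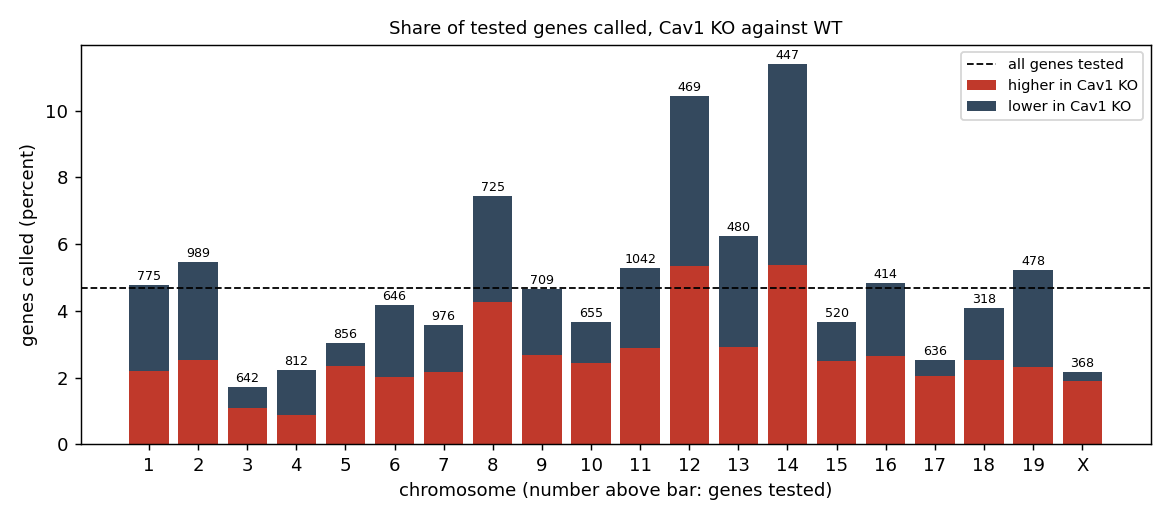
Percent of tested genes called at an adjusted p under 0.05 on each chromosome, stacked as higher (red) and lower (dark blue) in Cav1 knockouts than in wild types, with the number of tested genes above each bar and a dashed line at the 4.68% of all tested genes. Chromosomes 14 and 12 have the tallest bars.

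The Cav1 effect was set beside that of the stellate cell knockout of Plvap on chow after a 12 h fast, which has controls of its own. There 145 genes were higher and 144 lower in the Plvap knockouts than in their controls, of 12840 tested (2.25%). Of the 12411 genes tested in both comparisons, 537 were called for Cav1 and 279 for Plvap, and 27 were called in both. The 27 are 5.03% of the Cav1 calls, beside 2.25% called for Plvap among all genes tested there. They are 9.68% of the Plvap calls, beside 4.68% called for Cav1 among all genes tested there. Of the 27, 14 were higher in both knockouts, 8 lower in both, and 5 had opposite signs. Tff3, a secreted peptide of mucosal repair, was higher in both (3.22 ± 0.56 in Cav1 and 3.27 ± 0.52 in Plvap knockouts). So were Enpp2, which makes lysophosphatidic acid (0.69 ± 0.12 and 0.72 ± 0.12), the protease inhibitor Serpinb8 (0.98 ± 0.17 and 1.04 ± 0.22), Cfi (0.46 ± 0.08 and 0.66 ± 0.14), the chemokine Ccl9 (2.35 ± 0.45 and 0.90 ± 0.13), the ganglioside activator Gm2a (0.39 ± 0.09 and 0.51 ± 0.10) and Gm8893 (6.35 ± 0.14 and 1.11 ± 0.13). Vwa8, a mitochondrial ATPase, and Rtf2, a factor of DNA replication forks, were lower in both (-0.97 ± 0.14 and -0.71 ± 0.13 for Vwa8, -0.65 ± 0.13 and -0.51 ± 0.10 for Rtf2). On the Cav1 side, Ccl9 lost its call without any of the wild types (adjusted p 0.0708 to 0.0885), and its highest value, 406.2 CPM, was that of knockout B. Gm2a lost its call without wild types A, B or C or knockouts A or D (adjusted p 0.0565 to 0.0935).

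The difference of the 2 effects, Cav1 minus Plvap, was called for 171 genes with a positive and 223 with a negative sign, of 13674 tested (2.88%), and 253 of these 394 were called in the Cav1 comparison itself. The positive differences with the smallest p were Gm8893, Gm4737, Gm3375, Serpina3c and the translation factor gene Eif3j2, and the negative ones were Ces2g, Lrit1, Cebpe, Serpina1e and Gm5345. Plvap differed by 2.26 ± 0.20 and Cav1 by -2.18 ± 0.42, with adjusted p values of 1.47e-07 and 0.00331. Among the 27 genes called in both, the difference was called for 6: Gm8893, and the 5 with opposite signs, which were Chrm3, Insig2, an inhibitor of sterol synthesis, Dglucy, Bik and Rtn4rl1. Insig2 had a log2 fold change of 0.74 ± 0.14 in Cav1 knockouts and -0.79 ± 0.17 in Plvap knockouts. Every difference rests on the same libraries as the 2 effects, so its call adds no separate evidence for a gene called in either. This holds for all genes named here, the 5 with opposite signs and the targeted genes Plvap and Cav1 among them. Fast, line and genotype differ between the 2 experiments and cannot be told apart in these differences. The Plvap count moved with single libraries: it was 139, 97, 550, 133 and 90 without Plvap knockouts A, B, C, D and E, and 160, 134 and 101 without Plvap controls A, B and C. The count of differences was 299 to 435 without 1 library at a time.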

How the data were processed

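Bulk RNA-seq libraries of snap-frozen liver were made with an Illumina kit, per the labels' protocols. The authors deposited gene tables of raw read counts for 55416 genes with gene lengths; per the submitters' processing notes, STAR 2.7.8a, featureCounts 2.0, FastQC 0.11.9, MultiQC 1.10.1 and GRCm39 were used. The strand setting, the handling of reads that match several genes and the annotation release are not given in the sources used here. All 46 sample columns matched the labels, and 94.0% of gene IDs had a symbol. Genes without one took 2.18% of the counts of the 8 libraries, mostly ENSMUSG00000119584, and stayed in the fits.

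Counts were filtered with filterByExpr (minimum count 10, minimum total 15), scaled by TMM and tested with edgeR 4.0.16 (robust quasi-likelihood, R 4.3.3), with Benjamini-Hochberg adjusted p-values called under 0.05. The p-values measure the spread between these libraries, since the labels do not say that each is a separate animal. The Cav1 and Plvap effects were compared by an interaction term over 19 libraries. Cav1 was also tested by exact permutation with a pseudocount of 0.5 CPM. DESeq2 1.42.0, limma 3.58.1 voom, other filters, a length correction, a replicate block and leaving out libraries were alternatives. The scripts were tested on simulated data. CPM values use the library totals of the comparison's own table scaled by TMM, and levels set beside the Plvap line scale all 46 libraries together. Counting error and library spread both limit genes with few reads.

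Named genes were the caveolae genes, the 20 largest rises and falls as defined with the results, up to 6 called members of each list, called genes within 10 Mb of Cav1, up to 10 genes called the same way in both knockouts, up to 5 differences each way, substrain genes and defining markers; of these 184 genes, 125 had a promoter in the RefSeq table. Genes named outside this rule, such as the Ugt1a genes, those of the opposite signs, Gm20426 and Rnase4, were chosen after their values were seen. The members and lists were chosen with earlier results of these data known. Results of some genes are not reported here.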

Additional observations from a re-analysis of the deposited data

Results flagged for a closer look

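Among 299 sets of 4 livers of the named genes, 22 held a liver far from the other 3 by Dixon's test, where chance gives about 1 in 20. Knockout B held 9 of them. It was high for AA465934 (23.2 CPM, against 5.15 to 7.9 CPM in the other knockouts), Vmn1r51 (20.7 CPM, against 2.35 to 4.94 CPM), Serpina11 (154 CPM, against 132 to 133 CPM), Ccl9 (406.2 CPM, against 116 to 138 CPM), the neutrophil gene S100a8 (3.1 CPM, against 0.353 to 0.457 CPM) and the hemoglobin gene Hbb-bs (312 CPM, against 77.1 to 101 CPM). It was low for Ehd1 (40.6 CPM, against 50 to 51.7 CPM), Aldh1b1 (92 CPM, against 122 to 126 CPM) and Pdia6 (424.3 CPM, against 508 to 513 CPM).

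Knockout D was high for Ctse (55.5 CPM, against 22 to 26.8 CPM) and Cyp2c39 (134 CPM, against 43.2 to 57.3 CPM) and low for Cyp2c70 (312 CPM, against 598 to 634 CPM). Knockout C was high for Phyhip (2.97 CPM, against 1.63 to 1.7 CPM) and the Kupffer cell lectin Clec4f (155 CPM, against 101 to 109 CPM) and low for Serpinf2 (906 CPM, against 1069 to 1100 CPM). Knockout A was high for the bile duct keratin Krt19 (4.31 CPM, against 0.776 to 1.22 CPM).

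Among wild types, A was high for Slc1a4 (3.93 CPM, against 2.64 to 2.84 CPM) and Apob (5941 CPM, against 4455 to 4704 CPM), B was low for Apof (542 CPM, against 558 to 560 CPM), C was high for Serpinf2 (813 CPM, against 739 to 749 CPM), and D was high for Sdha (743 CPM, against 681 to 689 CPM) and the T cell gene Cd3e (1.6 CPM, against 0.378 to 0.562 CPM).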

How the results depend on the processing

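No called gene named here reversed its direction under any alternative that was run. Of 124 such genes, 68 kept their call under every one of up to 17 alternatives, and 290 of the gene and setting pairs lost it, against 1814 that kept it. The count of Cav1 calls, 607, was 933 with DESeq2 and 1279 with no filter on low counts, both of which tested more genes, and 330 to 671 without 1 library. The Plvap count, 289, was 690 with DESeq2, 713 with the replicate block, 184 with all 46 libraries in the fit and 90 to 550 without 1 library; these Plvap alternatives were chosen after seeing the data, and the cause was not tested. The calls over all gene lists, 72, were 120 with DESeq2, 158 with no filter and 40 to 80 without 1 library. The log2(CPM + 0.5) difference of Cav1 was -2.36 to -1.97 without 1 library, with p = 0.0571 by the exact permutation test, the smallest that 3 against 4 allows. Deviations of same-letter livers had correlations of 0.01, 0.09, 0.09 and 0.26 for A to D, and those of unlike letters -0.28 to 0.15. The letters were therefore not taken as pairs. With the replicate block the Cav1 count was 594 and the count of differences 444. Genes with few reads are limited by depth.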
